A study of Mus musculus with 7 samples.

Results

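The Schlafen family was examined in microglia of the dorsal hippocampus through 5 genes, Slfn1, Slfn2, Slfn5, Slfn8 and Slfn9, taken by gene symbol from the 55401 genes of the deposited count table. All 5 had enough counts to be tested, among 19199 tested genes. Mice were C57BL/6 and 6 to 8 weeks old, and the series describes them as adult males. Every animal, controls included, received a virus carrying Cre under the RAM promoter in the dorsal dentate gyrus, a promoter that is switched on in neurons activated by an experience. In the EYFP group (4 libraries, EYFP 1 to 4) a Cre-dependent virus for the fluorescent protein EYFP was given with it, and in the ATG7 group (3 libraries, ATG7 1 to 3) a Cre-dependent virus for Flag-tagged Atg7, a gene needed for autophagy. The transgene was thus aimed at engram neurons, while RNA came from CD11b-bead-enriched cells, and the comparison asks what differs in microglia when those neurons overexpress Atg7. The labels do not say whether a library came from 1 mouse or from pooled mice, so p-values measure the spread between these libraries.

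Schlafen proteins are a family of immune cells whose genes lie side by side and are known as interferon-stimulated genes. The shorter proteins, Slfn1 and Slfn2, hold the core domain that the whole family shares, and were first described as regulators of T cell growth and quiescence. Slfn2 is needed for the quiescence of T cells and monocytes and binds tRNA, which it protects from cleavage. The longer proteins, Slfn5, Slfn8 and Slfn9, carry a helicase-like domain behind the core, and relatives of this class restrict viruses and cleave tRNA. In interferon signalling, receptors activate the kinases Jak1 and Tyk2, and a complex that holds Stat2 and Irf9 then binds a DNA element called ISRE in front of responding genes.

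The genes fall into 2 classes by length in the GENCODE M21 annotation (GRCm38). The longest coding sequence was 1014 bases in Slfn1 and 1137 bases in Slfn2, against 2655 bases in Slfn5 and 2733 bases in both Slfn8 and Slfn9. In the 250 bases before the annotated start, the core letters of an ISRE, GAAANNGAAA on either strand, were found in Slfn5, Slfn8 and Slfn9 and not in Slfn1 or Slfn2. These letters occur in 2.98% of 32851 windows of the same length in the RefSeq table (GRCm38.p6), which holds all 5 members. A second element of interferon signalling, GAS (TTCNNNGAA, which reads the same on both strands), was in none of the 5 windows and in 7.02% of all windows. The stretches below show the 3 matches in capitals, each 5′ to 3′ on the strand of its gene. They are shown because the members that hold them and those that do not were measured side by side.

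Slfn5, chr11:82951937-82951966, plus strand, 165 to 136 bases before the start: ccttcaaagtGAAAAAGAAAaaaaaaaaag
Slfn8, chr11:83020811-83020930, minus strand, directly before the start: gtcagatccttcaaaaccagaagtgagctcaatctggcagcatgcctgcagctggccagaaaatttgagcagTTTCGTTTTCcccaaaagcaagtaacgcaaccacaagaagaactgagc
Slfn9, chr11:82991831-82991950, minus strand, directly before the start: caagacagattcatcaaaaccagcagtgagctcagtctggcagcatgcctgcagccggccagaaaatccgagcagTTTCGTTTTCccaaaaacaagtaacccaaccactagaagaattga

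In Slfn8 and Slfn9 the match is on the opposite strand, 48 to 39 and 45 to 36 bases before the start, with the same letters. The 250-base windows of these 2 genes were 79.8% identical over their alignment. For Slfn5 the RefSeq start used here lies downstream of the outermost start in GENCODE, so the window depends on which start is taken.

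The windows of Slfn1 and Slfn2 were searched for letters shared with Slfn3 and Slfn4, the neighbouring genes of intermediate length. The longest word found in all 4 windows was ACTTCCTGG, a word of 9 letters that holds the GGAA core of ETS factor sites on the opposite strand. It occurs in 0.7% of all windows and was absent from those of Slfn5, Slfn8 and Slfn9. The word was chosen because these 4 genes share it, so its presence in them is a description. A letter match is not a binding site, and the absence of one holds for these windows alone.

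Slfn1, chr11:83116700-83116819, plus strand, directly before the start: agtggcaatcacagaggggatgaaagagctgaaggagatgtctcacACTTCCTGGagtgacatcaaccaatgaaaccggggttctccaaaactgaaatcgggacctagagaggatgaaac
Slfn2, chr11:83064992-83065111, plus strand, directly before the start: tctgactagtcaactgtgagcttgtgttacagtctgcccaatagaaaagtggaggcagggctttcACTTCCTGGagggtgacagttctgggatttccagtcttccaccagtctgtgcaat

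The word began 74 bases before the start in Slfn1, 55 in Slfn2, 42 in Slfn3 and 73 in Slfn4.

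Total counts ranged from 35934210 to 55217119 per library, and 3 counts corresponded to 0.0546 to 0.0819 CPM, that is, counts relative to the library total. Values below are CPM scaled by TMM factors, which correct for differences in composition between libraries. Group means are given ± SD over the n = 4 EYFP and n = 3 ATG7 libraries. Microglial markers were abundant, with 8 genes summing to 20478 to 24861 CPM in EYFP and 20246 to 24817 CPM in ATG7. Choroid plexus markers were also abundant (37437 to 48529 and 31641 to 41529 CPM for 6 genes). The library labelled EYFP 3 stood apart: it had 938.0 CPM of Xist, the transcript of the inactive X chromosome, against at most 0.573 CPM in the others. Its Y-linked genes were lower than in the others but present (Ddx3y 27.6 against 121.1 to 168.5 CPM, Kdm5d 8.09 against 37.9 to 48.4 CPM), so values without it are given. Atg7 was at 35.5 ± 1.68 CPM in EYFP and 34.9 ± 2.76 CPM in ATG7, which does not check the labels because the transgene was aimed at neurons.

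All 5 members were at a higher level in every ATG7 library than in any EYFP library, and 3 of them, Slfn2, Slfn8 and Slfn9, rose at an adjusted p under 0.05. The test was edgeR's quasi-likelihood test with Benjamini-Hochberg adjustment over all 19199 genes, two-sided. Of all genes tested, 0.755% passed in either direction, 0.688% as higher and 0.0677% as lower in ATG7. A level above all EYFP libraries in every ATG7 library was found for 6.33% of all genes. The median log2 fold change was 0.99 over the 5 members and -0.0037 over all genes tested. Fewer cells of a type and less RNA per cell cannot be told apart in such bulk libraries.

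Slfn2 (ENSMUSG00000072620, chromosome 11, 83065112 to 83070678), the regulator of quiescence, was at 42.4, 38.3, 29.0 and 32.0 CPM in EYFP 1 to 4. It was at 51.7, 67.8 and 74.8 CPM in ATG7 1 to 3. The groups did not overlap, and ATG7 1 was the lowest ATG7 library. The mean rose from 35.4 ± 6.05 CPM to 64.8 ± 11.9 CPM. The log2 fold change was 0.87 (SE 0.150, edgeR adjusted p = 0.0301), which is 1.83-fold.

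Slfn1 (ENSMUSG00000078763, chromosome 11, 83116849 to 83122670), first described as a brake on thymocyte growth, was far less abundant. It was at 2.59, 3.44, 1.42 and 1.52 CPM in EYFP 1 to 4, from 62 to 158 counts. In ATG7 1 to 3 it was at 4.12, 7.55 and 10.1 CPM, from 165 to 471 counts. The groups did not overlap, but the lowest ATG7 library was only 1.20 times the highest EYFP library. Within each group the libraries were spread by more than for any other member, by 2.43 times in EYFP and 2.46 times in ATG7. On the log2 scale the estimate of 1.70 (SE 0.362) was the largest among the 5 members and did not pass (edgeR adjusted p = 0.0829).

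Slfn5 (ENSMUSG00000054404, chromosome 11, 82951349 to 82964840) is the mouse relative of human SLFN5, which is known to restrain interferon-driven transcription. It was at 58.1, 52.2, 31.4 and 40.7 CPM in EYFP 1 to 4. In ATG7 1 to 3 it was at 75.6, 93.9 and 102.1 CPM. EYFP 3 was the lowest library and EYFP 1 the highest control, still below ATG7 1. The mean was 45.6 ± 11.9 CPM against 90.5 ± 13.6 CPM. Its log2 fold change of 0.99 (SE 0.202) did not pass (edgeR adjusted p = 0.0853).

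Slfn8 (ENSMUSG00000035208, chromosome 11, 83002158 to 83020810), a long-form member of the class with the helicase-like domain, was at 86.4, 66.2, 73.9 and 72.8 CPM in EYFP 1 to 4. It was at 104.1, 127.1 and 121.9 CPM in ATG7 1 to 3. These libraries were the most alike of any member, with a coefficient of variation of 11.3% in EYFP and 10.3% in ATG7. The mean rose from 74.8 ± 8.46 CPM to 117.7 ± 12.1 CPM. The log2 fold change of 0.65 was the smallest of the 5 and had the smallest SE, 0.0992 (edgeR adjusted p = 0.0156).

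Slfn9 (ENSMUSG00000069793, chromosome 11, 82978390 to 82991830), the closest relative of Slfn8, was at 13.6, 11.2, 7.64 and 9.88 CPM in EYFP 1 to 4. It was at 19.6, 27.1 and 19.9 CPM in ATG7 1 to 3. The gap between the groups was the widest of the 5 members, the lowest ATG7 library standing at 1.44 times the highest EYFP library. The log2 fold change was 1.07 (SE 0.182, edgeR adjusted p = 0.0272), which is 2.10-fold.

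**Figure D1:**
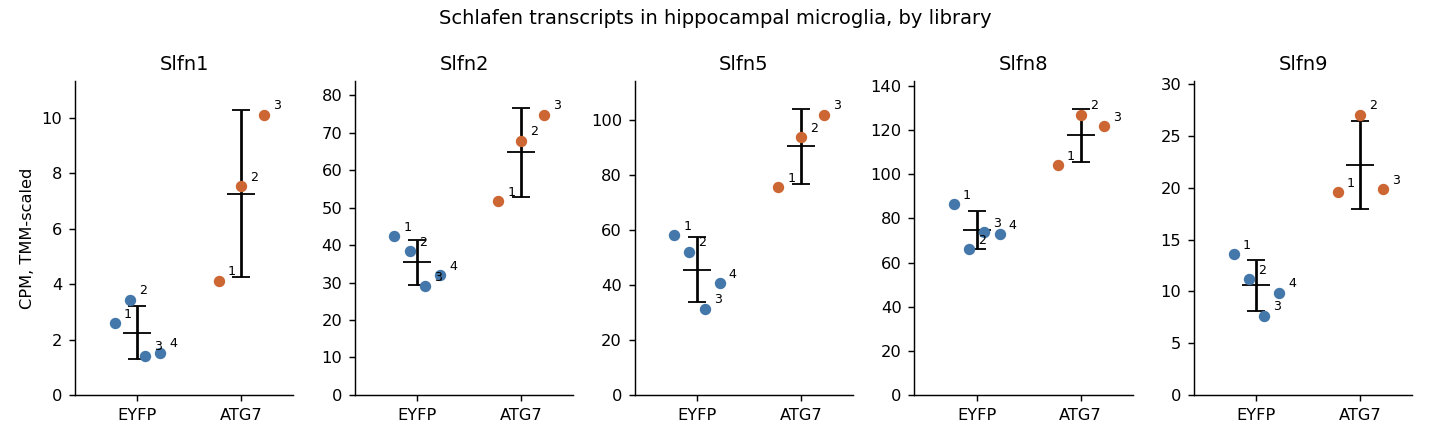
Level of each of the 5 Schlafen genes (vertical axis, TMM-scaled CPM, starting at 0) in the 4 EYFP and 3 ATG7 libraries; points are libraries with their replicate number, the horizontal bar is the group mean and the whiskers are 1 SD. In every panel all ATG7 points lie above all EYFP points, and ATG7 1 is the lowest ATG7 point.

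The order of libraries was the same for Slfn2 and Slfn5 and differed among the other members. ATG7 1 was the lowest ATG7 library for all 5 genes, and EYFP 3 was the lowest of all libraries for 4 of the 5, with EYFP 2 lowest for Slfn8. EYFP 1 was the highest control for 4 of the 5, with EYFP 2 highest for Slfn1. ATG7 3 was the highest library for Slfn1, Slfn2 and Slfn5, and ATG7 2 for Slfn8 and Slfn9.

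The number of members that passed depended on which libraries entered the fit. It was 4 without EYFP 3, the library with Xist, where Slfn5 passed with Slfn2, Slfn8 and Slfn9. The log2 fold changes were then 1.52 for Slfn1 (edgeR adjusted p = 0.117), 0.78 for Slfn2 (0.0367), 0.84 for Slfn5 (0.0281), 0.64 for Slfn8 (0.0293) and 0.94 for Slfn9 (0.0256). The number was also 4 without EYFP 1, where Slfn5 passed (log2 fold change 1.13, edgeR adjusted p = 0.0339), and without ATG7 1, where Slfn1 passed (log2 fold change 1.98, edgeR adjusted p = 0.0311). Without EYFP 2 Slfn8 alone passed (edgeR adjusted p = 0.0348), and the number was 0 without EYFP 4, without ATG7 2 or without ATG7 3. In all of these fits the fold changes of the 5 members stayed above 0. With the replicate number as a block the number that passed was 0, and DESeq2 passed all 5. Calls over all genes moved too, from 145 as reported to 164 without EYFP 3, 277 without EYFP 1 and 148 without ATG7 1. They fell to 94 without EYFP 2, 30 without EYFP 4, 28 without ATG7 2 and 30 without ATG7 3. The block left 0 genes over the whole table, and DESeq2 passed 585.

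**Figure D2:**
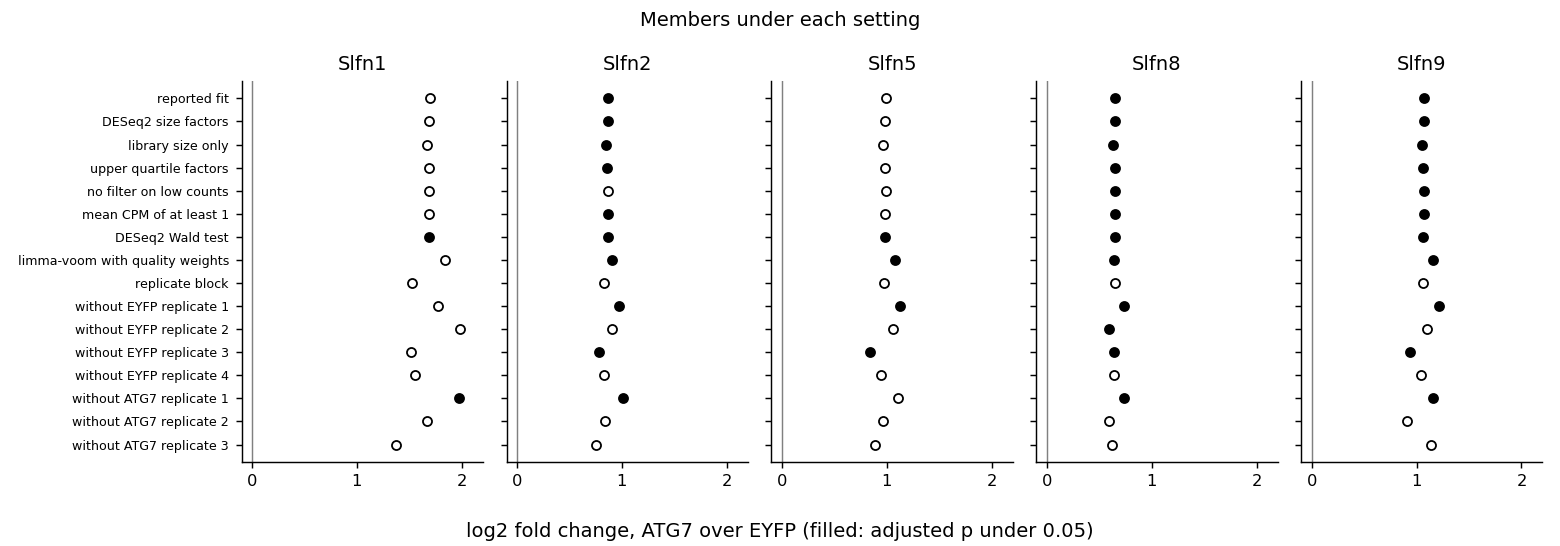
Log2 fold change of each member, ATG7 over EYFP (horizontal axis), under the reported fit and each of 15 alternatives, listed down the vertical axis; filled points have an adjusted p under 0.05. All points lie to the right of 0, between 0.59 and 1.98, and the calls, not the direction, move with the libraries left out.

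Whether members changed by different amounts was tested on the difference of their log2 CPM within each library, by an exact permutation test over the 35 ways to place the group labels, two-sided. None of the 10 pairs passed. The smallest exact permutation p was 0.0857 (0.286 after Benjamini-Hochberg adjustment), where this design can reach 0.0286 before adjustment. After adjustment over 10 pairs, a pair that reached 0.0286 alone could not have passed, so the test could not single out a pair. The log2 ratio of Slfn1 to Slfn2 was -4.03 ± 0.412 in EYFP and -3.22 ± 0.381 in ATG7, a difference of 0.81. The log2 ratio of Slfn8 to Slfn9 was 2.84 ± 0.311 and 2.42 ± 0.193, a difference of -0.42 (exact permutation p = 0.114, adjusted 0.286). A difference in response between members was therefore not detectable here, which does not show that they changed alike.

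Levels of different genes were compared per kilobase of merged exons. Slfn2 was at 21.3 ± 3.64 CPM per kilobase in EYFP and 38.9 ± 7.14 in ATG7. Slfn8 followed at 18.3 ± 2.07 CPM per kilobase and 28.8 ± 2.95, and the libraries of these 2 genes overlapped in both groups. Slfn5 came next, at 7.21 ± 1.88 CPM per kilobase and 14.3 ± 2.15, overlapping neither neighbour. Slfn9, at 1.77 ± 0.415 CPM per kilobase and 3.72 ± 0.710, was followed in EYFP by Slfn1, at 1.20 ± 0.515. In ATG7 Slfn1, at 3.90 ± 1.62 CPM per kilobase, stood beside Slfn9, and the libraries of these 2 genes overlapped in both groups. The order of the members in EYFP was thus Slfn2, Slfn8, Slfn5, Slfn9 and Slfn1, with ranges that overlapped at the top and at the bottom. Within libraries, Slfn2 was above Slfn8 in 6 of 7, the exception being EYFP 3, and Slfn9 was above Slfn1 in 4 of 4 EYFP and 2 of 3 ATG7 libraries. These differences in level were not tested.

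**Figure D3:**
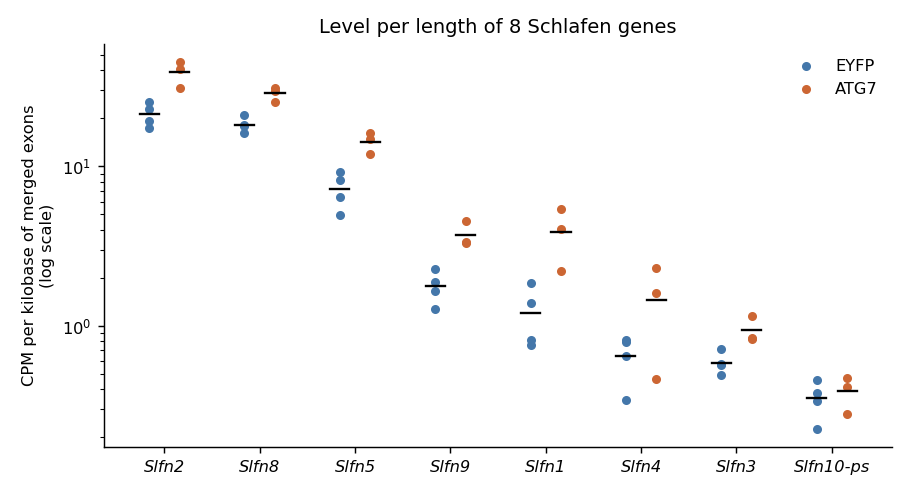
Level per length of the 5 members and 3 further Schlafen genes (vertical axis, CPM per kilobase of merged exons, log scale), with points for libraries and horizontal lines for group means. In EYFP Slfn2 and Slfn8 lie between 16.2 and 25.5, Slfn5 between 4.96 and 9.18, and Slfn9, the next member, between 1.28 and 2.27.

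Close copies can share reads, and the handling of shared reads is not given in the sources used here. The coding sequences of Slfn8 and Slfn9 were 92.7% identical over 2733 aligned bases. Even so, 14.6% of the 50-base windows of Slfn8 transcripts and 11.9% of those of Slfn9 occurred exactly in another annotated gene, mainly in each other and in the pseudogene Slfn10-ps. At 100 bases the shares were 3.38% and 3.71%. The sum of Slfn8 and Slfn9 was at 77.4 to 100.002 CPM in EYFP and 123.7 to 154.1 CPM in ATG7, without overlap. Slfn1 and Slfn2 were more distinct, with 0.606% and 4.27% of their 50-base windows found elsewhere, while for Slfn5 the share was 11.1%, most of it in its antisense transcript. That transcript, Slfn5os, had 0 to 6 counts per library. Gm20234, which overlaps Slfn2 on the other strand, had 25 to 49 counts, against 1303 to 3728 for Slfn2.

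The table holds 5 other Schlafen genes. Of these, 3 were tested and 0 passed (edgeR quasi-likelihood test), 2 had an unadjusted p under 0.05, and DESeq2 and limma-voom passed 0. An unadjusted p under 0.05 was found for 12% of all genes. Slfn3, of intermediate length, was at 2.43, 1.68, 1.97 and 1.94 CPM in EYFP 1 to 4 and at 2.80, 2.86 and 3.93 CPM in ATG7 1 to 3. These groups did not overlap (log2 fold change 0.67, SE 0.206, edgeR adjusted p = 0.203). Slfn4, a close copy of Slfn3 known from activated myeloid cells, was at 3.14, 2.57, 3.21 and 1.35 CPM in EYFP 1 to 4. In ATG7 1 to 3 it was at 1.82, 9.17 and 6.34 CPM, so ATG7 1 lay among the controls while the other two lay above them (log2 fold change 1.18, SE 0.498, edgeR adjusted p = 0.404). The pseudogene Slfn10-ps was at 0.819 to 1.66 CPM in EYFP and 1.01 to 1.70 CPM in ATG7, with a log2 fold change of 0.13 and an SE of 0.287 (edgeR adjusted p = 0.904). Slfn14 had 0 or 1 count in each library, and Slfnl1, a family gene on chromosome 4, had 1 to 9. Neither was tested.

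Except for Slfnl1, the family lies in 1 cluster of 335.4 kilobases on chromosome 11, from 82951349 to 83286726. The 32 other tested genes inside the cluster or within 500000 bases of it had a median log2 fold change of 0.04, and 0 passed (edgeR quasi-likelihood test). At an unadjusted edgeR p under 0.05, 2 were higher and 2 lower, where 12% of all genes had such a p. DESeq2 passed 1 and limma-voom 0, and without EYFP 3 edgeR passed 1. The 4 of them inside the cluster had fold changes between 0.07 and 0.50 on the log2 scale, and their groups overlapped. They were pseudogenes, an antisense transcript and a processed transcript, none of them protein-coding. Their group means were 0.223 to 3.92 CPM and their SE 0.155 to 0.579. Unc45b, the nearest gene before the cluster, which encodes a myosin chaperone, was at 2.27 ± 0.535 CPM in EYFP and 3.11 ± 0.695 CPM in ATG7 (log2 fold change 0.45, SE 0.235, edgeR adjusted p = 0.498). AA465934, the nearest after it, was at 1.61 ± 0.176 and 1.85 ± 0.539 CPM (log2 fold change 0.20, SE 0.239, edgeR adjusted p = 0.815). Further away, the chemokine genes Ccl5 and Ccl4, picked out after their values were seen, were the 2 flanking genes above all controls in every ATG7 library. Their log2 fold changes were 2.00 and 0.83 (edgeR adjusted p = 0.163 and 0.400).

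**Figure D4:**
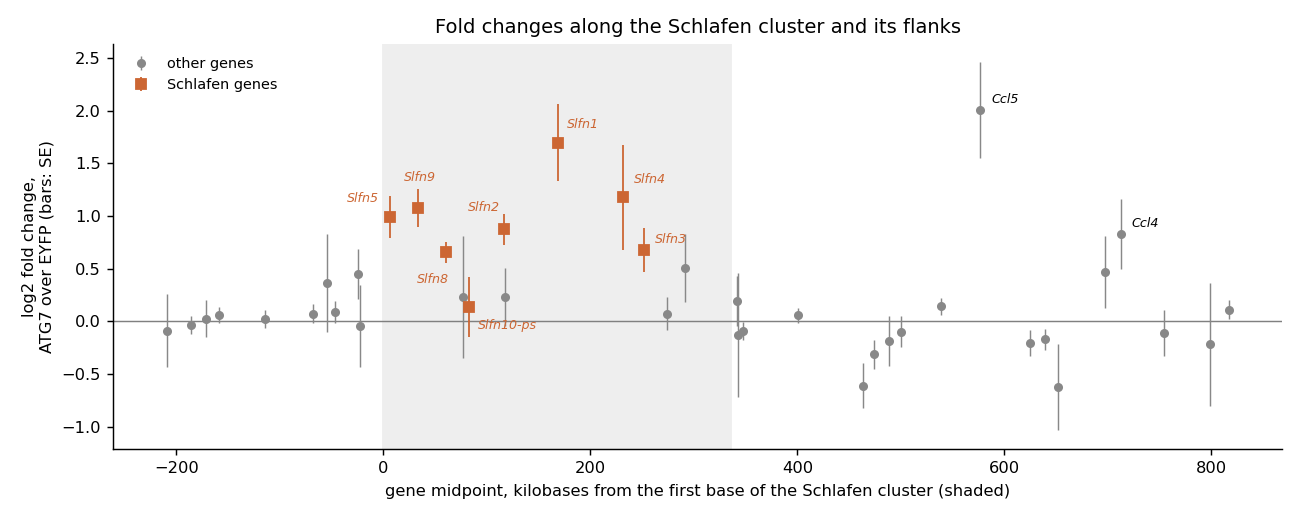
Log2 fold change with its SE (vertical axis) against gene midpoint (horizontal axis, kilobases from the first base of the cluster, which is shaded) for Schlafen genes (squares) and other tested genes (circles). The 5 members lie between 0.65 and 1.70 and the 3 other tested Schlafen genes between 0.13 and 1.18. The 4 tested genes inside the cluster from outside the family lie between 0.07 and 0.50, and none of these is protein-coding.

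Genes of interferon signalling and genes that interferon induces were set beside the family, from lists that were written with earlier results of these data known. Of the 14 signalling genes 4 rose and 0 fell, with a median log2 fold change of 0.30. Among all genes tested, 0.688% passed as higher and 0.0677% as lower. The transcription factor Stat2 rose by 0.93 (SE 0.131, edgeR adjusted p = 0.0137), from 54.3 ± 10.7 CPM to 103.8 ± 8.16 CPM. Irf9, its DNA-binding partner, was at 75.9 ± 4.64 CPM and 99.0 ± 9.05 CPM and did not pass (log2 fold change 0.38, edgeR adjusted p = 0.0590). Usp18, a feedback inhibitor of the interferon receptor, rose by 1.49 (SE 0.248, edgeR adjusted p = 0.0420). Irf1, a transcription factor that interferon induces, rose by 0.53 (SE 0.105, edgeR adjusted p = 0.0483), a call not kept under 4 of the 5 other scalings and filters or under 6 of the 7 fits that leave out a library. The receptor and kinase genes Ifnar1, Ifnar2, Ifngr1, Ifngr2, Jak1, Jak2 and Tyk2 had fold changes between 0.08 and 0.22 and did not pass.

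Of the 20 interferon-induced effectors 11 rose and 0 fell, with a median log2 fold change of 0.96. Among all genes tested, 0.688% passed as higher and 0.0677% as lower. All 20 effectors lay above every control in each ATG7 library, as 6.33% of all genes did. The 4 with the smallest p were Bst2 (tetherin, which holds virus particles at the cell surface), Adar (an RNA editing enzyme), Isg15 (a ubiquitin-like modifier) and Eif2ak2 (the double-stranded RNA kinase PKR). Bst2 rose by 0.86 (SE 0.118, edgeR adjusted p = 0.0105). Adar rose by 0.61, Isg15 by 1.52 and Eif2ak2 by 0.58. The fold changes of the Schlafen members, 0.65 to 1.70, thus lay within the 0.47 to 1.80 of these effectors. Without EYFP 2 the number of effectors that passed was 3, without EYFP 3 it was 18, and it was 0 without EYFP 4, ATG7 2 or ATG7 3. For the signalling genes it was 1 without EYFP 2, EYFP 4, ATG7 2 or ATG7 3. The numbers over all genes in these fits, given above with the members, moved as well.

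**Figure D5:**
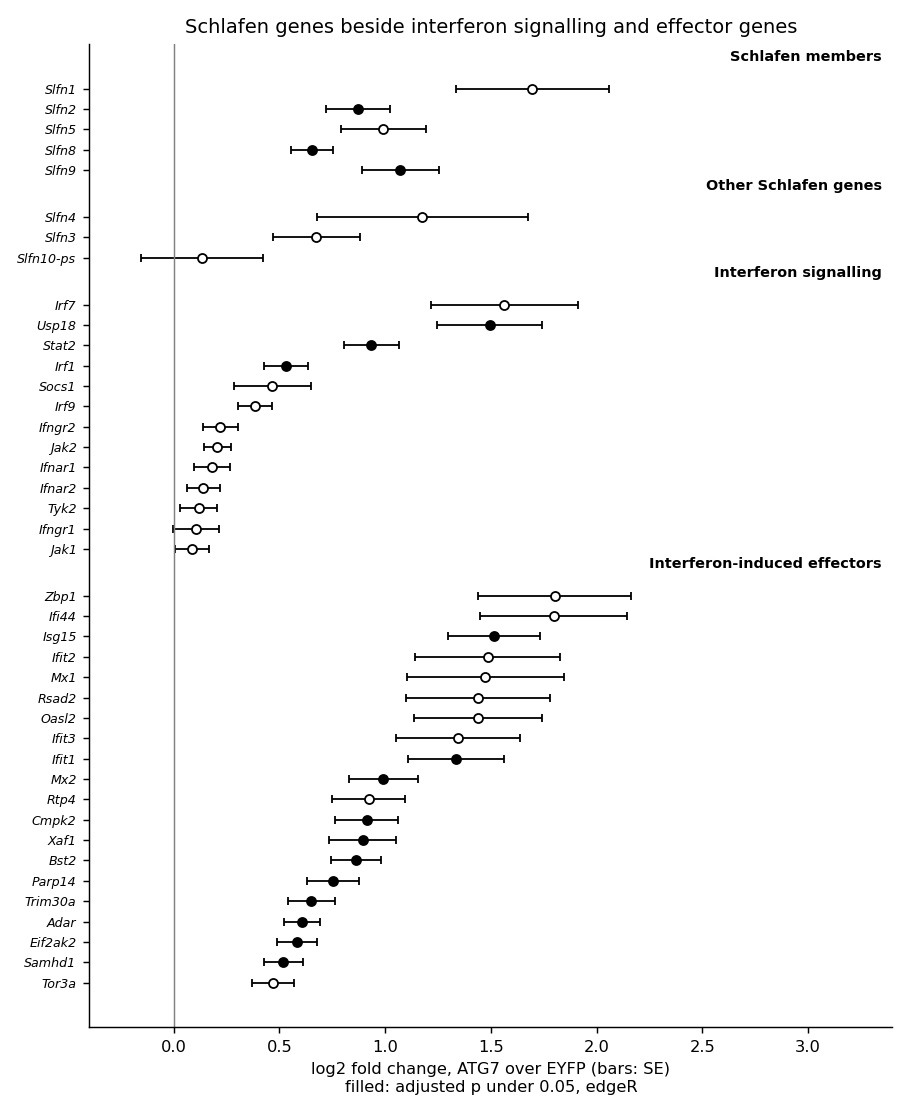
Log2 fold change, ATG7 over EYFP, with its SE (horizontal axis) for the 5 members, 3 other Schlafen genes, 13 of the 14 interferon signalling genes (the other is not shown) and 20 interferon-induced effectors; filled points passed at an adjusted p under 0.05 in edgeR. The members span 0.65 to 1.70, within the range of the effectors and above the receptor and kinase genes.

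A list on tRNA cleavage and its control was read because Slfn2 binds tRNA. Of its 5 genes 0 passed (edgeR quasi-likelihood test), and DESeq2 and limma-voom also passed 0. An unadjusted edgeR p under 0.05 was found for 2, both with lower levels, and for 12% of all genes in either direction. Trdmt1, a tRNA methyltransferase, was at 10.02 ± 0.641 CPM in EYFP and 7.90 ± 0.674 CPM in ATG7. It lay below all controls in every ATG7 library, as 4.91% of all genes did, with a log2 fold change of -0.34 and an SE of 0.114 (edgeR adjusted p = 0.254). Ang, the ribonuclease angiogenin that cuts tRNA, was at 65.6 ± 9.88 and 70.3 ± 1.15 CPM (log2 fold change 0.10, edgeR adjusted p = 0.781). Nsun2, a tRNA methyltransferase, had a log2 fold change of 0.04 (edgeR adjusted p = 0.861), and Rnh1, the inhibitor of angiogenin, of -0.01 (edgeR adjusted p = 0.974).

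Markers of other cell types were read beside the family, because Slfn1 and Slfn2 are known from T cells and monocytes. Across 11 lists with 66 tested genes 0 passed (edgeR quasi-likelihood test), and limma-voom also passed 0. At an unadjusted edgeR p under 0.05, 9 were higher and 3 lower, where 12% of all genes had such a p. Of the 9 higher genes, 6 were T and NK lymphocyte markers and 2 monocyte markers. DESeq2 passed 4, of which 3 were T and NK lymphocyte markers and 1 a monocyte marker. The summed markers of T and NK lymphocytes, like the members, were higher in every ATG7 library than in any EYFP library. Their 8 genes summed to 12.6, 13.6, 8.15 and 10.4 CPM in EYFP 1 to 4 and to 15.2, 16.1 and 28.1 CPM in ATG7 1 to 3. All 8 had a fold change above 0, with a median of 1.60 on the log2 scale. For 6 of them every ATG7 library lay above all controls, as for 6.33% of all genes. Their edgeR adjusted p ranged from 0.0961 (Trac) to 0.581 (Cd4) over the 8 genes. Some counts were low: Cd3d was at 0.0443 CPM in EYFP 3, where 3 counts corresponded to 0.0665 CPM. Cd3e, a defining T cell gene, was at 0.177 to 0.540 CPM in EYFP and 0.624 to 1.65 CPM in ATG7, and no marker of the list was at 0 throughout. Cd4, which overlapped between the groups, made up 6.07 to 8.26 CPM of the sum in EYFP and 7.62 to 9.11 CPM in ATG7. Among the 5 monocyte markers, Plac8 was at 1.79 to 4.25 CPM in EYFP and 4.69 to 11.4 CPM in ATG7, Ly6c2 at 1.55 to 4.40 and 3.02 to 13.5 CPM, and Ccr2 at 17.4 to 23.4 and 17.7 to 23.7 CPM. Chil3 was at 3.12 to 6.45 and 1.66 to 8.19 CPM, and the groups also overlapped for Vcan (log2 fold change -0.13). Of the 5 genes 2 had a fold change above 0 and 3 below, with a median of -0.03 on the log2 scale. The sum of the 5 was 30.8 to 36.7 CPM in EYFP and 30.4 to 57.1 CPM in ATG7, and that of 6 neutrophil markers 32.6 to 74.1 and 21.4 to 117.6 CPM, both with overlap. ATG7 3 had the highest sum of all libraries for T and NK lymphocytes (28.1 CPM), monocytes (57.1 CPM), neutrophils (117.6 CPM, against 21.4 and 25.1 CPM in ATG7 1 and 2) and endothelial and mural cells (883.0 CPM), and was also the highest library for Slfn1, Slfn2 and Slfn5. Slfn8 and Slfn9 were highest in ATG7 2. Without ATG7 3 the log2 fold changes were 1.37 for Slfn1, 0.75 for Slfn2, 0.89 for Slfn5, 0.62 for Slfn8 and 1.14 for Slfn9. With all 7 libraries they were 1.70, 0.87, 0.99, 0.65 and 1.07. None of the members passed without ATG7 3 (edgeR adjusted p from 0.101 to 0.292), nor without ATG7 2 or EYFP 4. Over all genes, 30 passed without ATG7 3, against 145 with all libraries. The part of these cell types in the Schlafen values was not tested.

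The remaining lists had overlapping sums, though some leaned in 1 direction. All 6 endothelial and mural markers had a fold change above 0, with a median of 0.30 on the log2 scale. All 6 neuronal markers (median -0.49) and all 6 choroid plexus markers (median -0.26) had one below 0, as did 5 of 6 oligodendrocyte lineage markers and the 3 tested B cell markers. Border macrophage and astrocyte markers were split 3 and 3. The 6 border macrophage markers summed to 514.3 to 631.6 CPM in EYFP and 550.5 to 621.9 CPM in ATG7, and the 5 B cell markers to 233.2 to 264.7 and 204.8 to 259.7 CPM. The 6 neuronal markers were at 3.74 to 20.1 and 6.04 to 7.19 CPM, the 6 astrocyte markers at 294.8 to 641.9 and 376.1 to 467.6 CPM, and the 6 oligodendrocyte lineage markers at 177.1 to 435.2 and 204.7 to 291.8 CPM. Endothelial and mural markers, 6 in number, were at 373.3 to 642.6 and 496.5 to 883.0 CPM.

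Genes outside the family were ranked by how closely their log2 CPM followed the mean standardised log2 CPM of the 5 members over the 7 libraries. The closest were Sdc3, a heparan sulfate proteoglycan (Pearson r = 0.999, n = 7), Olr1, a receptor for oxidised lipoprotein (r = 0.998), and Cd52, a surface glycoprotein of immune cells (r = 0.994). H2-T22, an MHC class I-like gene (r = 0.992), and Ifih1, the RNA sensor MDA5 (r = 0.992), followed. The measure is a description: the 2 groups contribute to it, the libraries are shared, and 159 of 19191 genes reached an r of at least 0.95. Sdc3 was at 131.7 ± 25.7 CPM in EYFP and 268.3 ± 45.5 CPM in ATG7, and Ifih1 at 45.6 ± 4.82 and 68.1 ± 6.45 CPM. The log2 fold changes were 1.03 for Sdc3, 0.96 for Olr1, 0.73 for Cd52, 0.63 for H2-T22 and 0.58 for Ifih1, and of these genes Olr1 did not pass (edgeR adjusted p = 0.146).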

How the data were processed

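The authors deposited raw counts per Ensembl gene for 7 libraries. Per the submitters' processing notes, fastp 0.20.1, HISAT2 2.0.5 and featureCounts were used with GRCm38 (mm10). The strand setting, the handling of shared reads and the annotation release are not given in the sources used here. Columns were matched by name to the sample titles. Symbols and positions came from GENCODE M21 (GRCm38), which left 260 identifiers without a symbol. Testing used edgeR 4.0.16 (quasi-likelihood, R 4.3.3) with TMM factors, filterByExpr and a robust fit, over all 7 libraries with no covariate. The SE was derived from the fold change and its F statistic. Log2 CPM used a prior count of 2. The code was tested on simulated data. Alternatives were other scalings and filters, DESeq2 1.42.0, limma-voom 3.58.1, a replicate block and leaving out each library. Upstream sequences came from RefSeq (GRCm38.p6), and coding sequences were aligned with Biopython 1.88.

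Members, lists and the naming rule were chosen with earlier results of these data known. Named by the rule were all Schlafen genes, the 4 genes of each pathway list with the smallest p, Stat2 and Irf9, the nearest flanking genes and the 5 genes closest in pattern. Other names were chosen after their values were seen. Some genes of the lists are counted but not reported singly here.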

Additional observations from a re-analysis of the deposited data

Results flagged for a closer look

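Trdmt1, a tRNA methyltransferase gene, was at 10.97 CPM in EYFP 3, the library with Xist, and at 9.61 to 9.83 CPM in the other 3 EYFP libraries, a gap of 84.0% of the group's range. All 4 lay above the ATG7 libraries. Of 28 genes compared in this way 1 was set apart, and chance alone gives 1.4. None of the 5 Schlafen members was among them.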

How the results depend on the processing

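All fold changes of the 5 members stayed above 0 under every alternative run, while the calls moved. The number of members that passed, 3 as reported, was 5 with DESeq2 and 0 to 4 when 1 library was left out. DESeq2 gave log2 fold changes of 1.69 for Slfn1 and 0.98 for Slfn5, and limma-voom 1.08 for Slfn5, all of which then passed. With no filter on low counts Slfn2 kept 0.87 and no longer passed. Leaving out 1 library gave 1.37 to 1.98 for Slfn1, 0.75 to 1.01 for Slfn2, 0.84 to 1.13 for Slfn5, 0.59 to 0.74 for Slfn8 and 0.90 to 1.21 for Slfn9.

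The 145 genes that differed (132 higher, 13 lower) became 297 (234 and 63) with no filter and 585 (407 and 178) with DESeq2, and limma-voom had 25 lower. Without 1 library they numbered 28 to 277, with 26 to 209 higher and 2 to 68 lower. Interferon signalling genes that passed then numbered 1 to 5, effectors 0 to 18 and flanking genes 0 to 1; DESeq2 passed 20 effectors and 1 flanking gene. The cause of these shifts was not tested.

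With the replicate number as a block, 0 genes passed in all, 0 higher and 0 lower, with 0 members, 0 signalling genes and 0 effectors. The members' log2 fold changes in the replicate block were 0.83 for Slfn2, 0.64 for Slfn8 and 1.06 for Slfn9. The labels do not say that equal numbers share an animal or a day. Deviations of equally numbered libraries from their group means correlated at -0.061, -0.18 and 0.066. Such values cannot decide whether equal numbers share a day or an animal. None of the ATG7 libraries correlated best with the EYFP library of its own number. From the EYFP side, EYFP 3 did, and EYFP 1 and EYFP 2 did not.

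Values near 0 turned sign. With 1 library left out, the log2 fold change of Slfn10-ps ranged from -0.023 (without EYFP 1; -0.022 without ATG7 1) to 0.31, and that of AA465934 from -0.051 (without ATG7 1) to 0.36. The Slfn5 minus Slfn9 difference ranged from -0.23 to 0.057, the highest value being without ATG7 2. With 62 to 471 counts per library, Slfn1 had the largest spread.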
